A study of Mus musculus with 2 samples.

Results

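The LXR axis and cholesterol efflux genes are a set of 10 genes, picked by symbol from the 22322 genes in the deposited table of liver macrophage mRNA. They are the receptors Nr1h3 and Nr1h2, the efflux transporters Abca1 and Abcg1, the LXR targets Mylip, Srebf1, Lpcat3 and Pltp, and the endosomal cholesterol export genes Npc1 and Npc2. All 10 were found, and all 10 stood above 10 FPKM in both libraries, where FPKM is the number of fragments scaled to the length of the gene and to the size of the library.

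Macrophages of FABP7 KO livers gave 1 library and those of WT livers gave 1 library. FABP7 is a fatty acid binding protein, and the KO mice, on a C57BL/6 background like the WT mice, lack it throughout the body and not in macrophages alone. Mice of both genotypes had received 500000 MC38 cells, a mouse colon carcinoma line, in 100 µl PBS into the spleen, and F4/80-selected macrophages were taken from the metastatic liver on day 10. There were no tumor-free mice among the samples, so both libraries come from livers with metastases. The mice of both genotypes were males of 6 to 8 weeks. No source used here says how many of them went into a library. The KO sample is titled FABP7 KO, though its genotype field reads knockdown. With 1 library per genotype there is no spread between mice and no test. Fabp7 itself (ENSMUSG00000019874) stood at 0.69 FPKM in the KO library and at 354 FPKM in the WT library.

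Liver X receptors (LXR) are nuclear receptors that sense cholesterol in the form of oxysterols. They sit on DNA as heterodimers with retinoid X receptors (RXR), and when their ligands bind they switch on genes that move cholesterol out of the cell, limit its uptake and change the fatty acids made and built into phospholipids. In macrophages this program answers the cholesterol load that comes from engulfed cells and lipoproteins, and in Kupffer cells, the resident macrophages of the liver, LXRα also belongs to the factors that maintain cell identity. Npc1 and Npc2 stand upstream of it, since they release lipoprotein cholesterol from the late endosome and lysosome.

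LXR and RXR bind a direct repeat known as DR4. RefSeq windows (build GRCm38.p6) of the 250 bases before the start site were held for 8 of the 10 genes, all but Abcg1 and Npc1, with 11 windows in all because Nr1h3 has 2 starts and Srebf1 has 3. They were searched on both strands for a DR4-type repeat, written as a pair of GGTNA in the same direction with 5 bases between them, the fifth of which is the first base of the second repeat unit. Shown are the 2 windows that hold it, those of Abca1 and of the downstream Srebf1 start, and the windows of Mylip and Pltp, which stood with Abca1 among the genes most above WT and do not hold it. Capitals mark the match, which in both genes lies on the opposite strand. Sequences run 5′ to 3′ along the gene.
Abca1, chr4:53159896-53160145, minus strand: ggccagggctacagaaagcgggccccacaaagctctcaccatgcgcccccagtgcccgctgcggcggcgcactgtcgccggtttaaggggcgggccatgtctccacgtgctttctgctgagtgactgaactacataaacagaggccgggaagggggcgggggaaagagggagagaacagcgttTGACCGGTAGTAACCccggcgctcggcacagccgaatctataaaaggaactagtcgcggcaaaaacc
Srebf1 downstream start, chr11:60210472-60210721, minus strand: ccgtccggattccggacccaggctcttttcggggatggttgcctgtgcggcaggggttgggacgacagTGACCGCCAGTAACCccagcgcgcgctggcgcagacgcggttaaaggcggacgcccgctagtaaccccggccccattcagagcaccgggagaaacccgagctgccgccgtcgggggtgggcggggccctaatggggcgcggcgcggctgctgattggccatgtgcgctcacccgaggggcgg
Mylip, chr13:45389492-45389741, plus strand: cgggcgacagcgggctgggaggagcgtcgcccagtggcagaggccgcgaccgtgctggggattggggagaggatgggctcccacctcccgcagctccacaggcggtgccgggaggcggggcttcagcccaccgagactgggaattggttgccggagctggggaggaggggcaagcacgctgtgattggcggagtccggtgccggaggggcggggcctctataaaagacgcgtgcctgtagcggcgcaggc
Pltp, chr2:164857709-164857958, minus strand: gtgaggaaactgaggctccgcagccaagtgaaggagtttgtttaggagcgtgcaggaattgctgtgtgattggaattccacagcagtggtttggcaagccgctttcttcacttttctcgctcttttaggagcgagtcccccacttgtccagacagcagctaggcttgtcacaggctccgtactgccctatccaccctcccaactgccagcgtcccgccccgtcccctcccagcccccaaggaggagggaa

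In Abca1 the match lay at bases -67 to -53 from the start site, and in Srebf1 at -182 to -168. Both matches begin with TGACCG and end with AGTAACC. Over all mouse promoters the same motif was in 204 of 32851 windows (0.621%), or in at least 1 window of 191 of 27025 genes (0.707%). A match describes these letters and not a bound site, and a window without one says nothing of elements farther away. Expression was deposited per gene, so the values below are not split between the Srebf1 starts. The motif was chosen after the expression values were seen. Its N stands for any base, and in both matches it is T in one repeat unit and C in the other. A pair of GGTCA would match neither window, so the finding of these matches depends on that free base. The share over all promoters therefore does not measure how unusual they are.

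**Figure D1:**
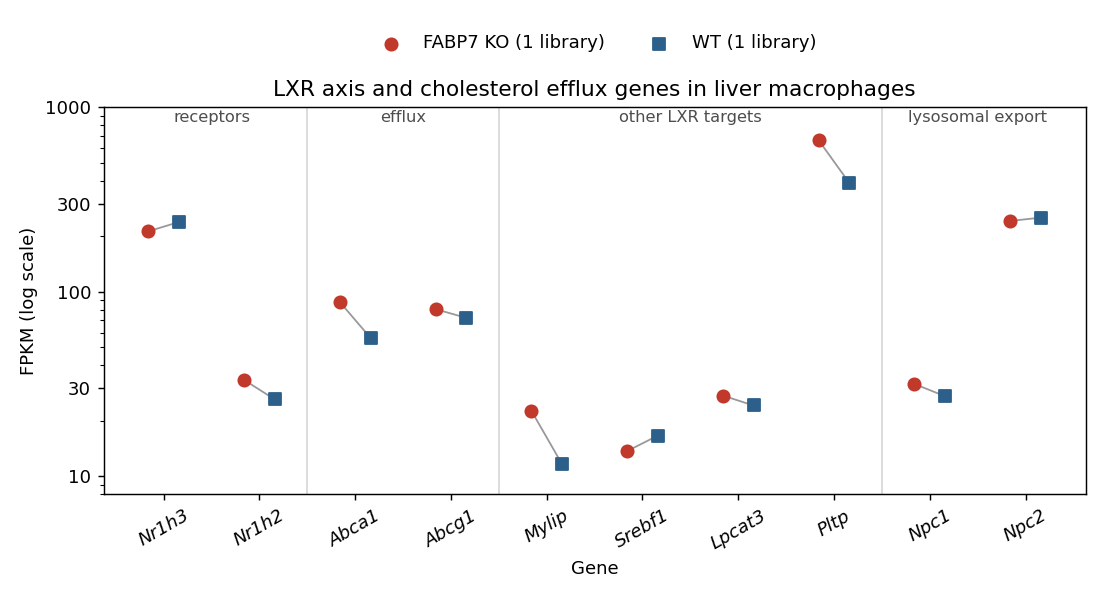
FPKM on a log scale for each of the 10 genes in the FABP7 KO library (circles, left) and the WT library (squares, right), 1 library each, with a grey line joining the pair and vertical lines between gene roles. Pltp is the highest gene in both libraries, at 662 FPKM in KO and 389 FPKM in WT, and the steepest line is that of Mylip, at 22.6 FPKM in KO and 11.6 FPKM in WT.

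The 10 genes fell into 3 tiers of level. Pltp, Npc2 and Nr1h3 were the 3 highest genes in both libraries, at 213 FPKM or more each. Abca1 and Abcg1 stood between 56.2 and 87.8 FPKM, and the other 5 genes between 11.6 and 33.25 FPKM. The order within these tiers differed between the genotypes at 3 places. In the KO library Abca1 stood above Abcg1, Nr1h2 above Npc1 and Mylip above Srebf1, and in the WT library each of these pairs stood the other way round. The 95% counting intervals of Nr1h2 and Npc1 overlapped in both libraries, and those of Nr1h2 and Lpcat3 in the WT library, so their order is within counting error. All other neighbours in the order were apart by more than counting error, which leaves out differences between mice.

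The log2 ratio of each gene is that of FPKM + 1 in KO to FPKM + 1 in WT. A gene was called higher or lower when this ratio reached 1.5-fold in either direction, 0.58 on the log2 scale, and a 2-fold rule was kept beside it. Both are rules of size and not tests. Of the 10 genes, 3 were at least 1.5-fold higher in FABP7 KO than in WT macrophages, namely Mylip, Pltp and Abca1, and 0 were at least 1.5-fold lower. Scaled to the pan-macrophage markers, Abca1 no longer passed, at a log2 ratio of 0.51, and 2 genes remained. Over the 10770 genes that reached 1 FPKM in either library, the 1.5-fold rule called 8.02% higher and 7.37% lower. No member reached 2-fold, against 2.21% of all genes higher and 2.95% lower by that rule. The same shares were also taken over the 4240 genes whose mean level lies within the range of the 10 members, a comparison added after the values were seen. There the 1.5-fold rule called 4.03% higher and 5.73% lower, and the 2-fold rule 1.11% higher and 1.51% lower. The median log2 ratio was 0.19 over the 10 genes, with 7 above 0 and 3 below 0, against 0.0036 over all 10770 genes and -0.05 over the 4240 genes of like level.

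**Figure D2:**
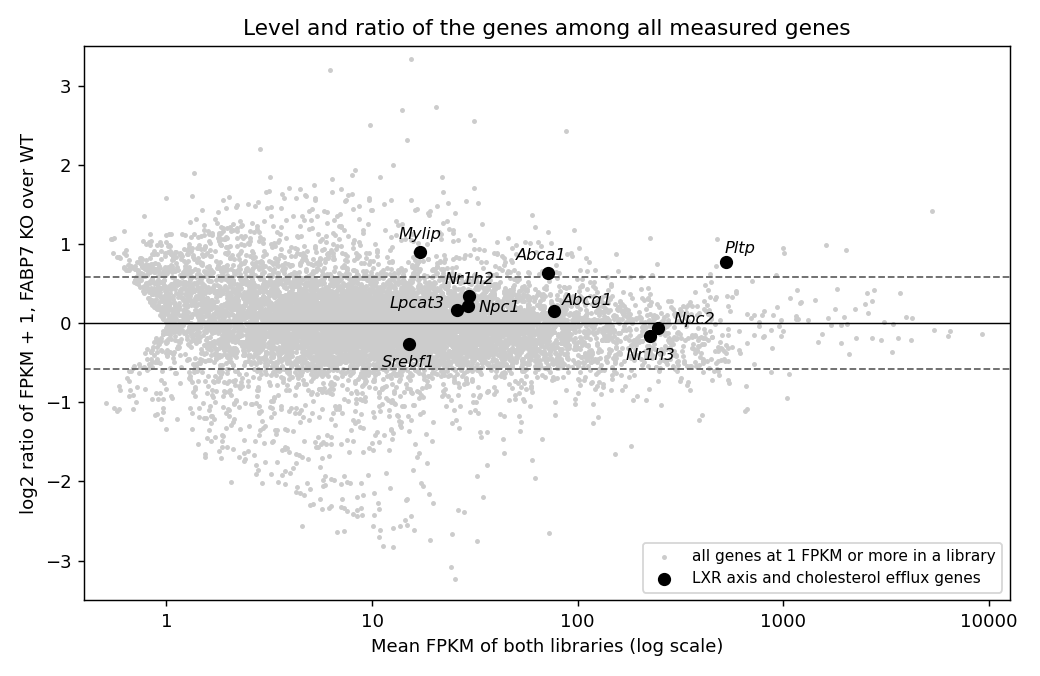
Log2 ratio (FPKM + 1 of FABP7 KO over that of WT) against mean FPKM of the 2 libraries on a log scale, for the 10 genes (black, named) and all measured genes with a symbol (grey), with dashed lines at 1.5-fold. Mylip, Pltp and Abca1 lie above the upper dashed line and no member lies under the lower one. Fabp7, at -7.71, is below the drawn range.

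The label of the samples as liver macrophages was checked against marker lists. All 8 pan-macrophage markers were at 1 FPKM or more and summed to 8346 FPKM in KO and 6164 FPKM in WT, with 2 at least 1.5-fold higher (Lyz2 and Cd14) and with Csf1r, the receptor for the growth factor of macrophages, at 3173 FPKM in KO and 2372 FPKM in WT. The 8 Kupffer cell markers summed to 15339 FPKM in KO and 14827 FPKM in WT, with 0 higher and 2 lower by 1.5-fold (Marco and Cd163). The 8 markers of monocyte-derived macrophages summed to 44.45 FPKM in KO and 41.9 FPKM in WT, with 1 higher (Trem2) and 1 lower (Ly6c2). Cd14, Marco, Cd163 and Ly6c2 are named here after their values were seen. Markers of most other cells were present in both libraries and higher in KO. At least 1.5-fold higher were 7 of 10 hepatocyte markers (summed 457 FPKM in KO, 234 FPKM in WT), 6 of 8 sinusoidal endothelial markers (251 FPKM in KO, 126 FPKM in WT) and 5 of 8 stellate cell markers (50.8 FPKM in KO, 18.25 FPKM in WT). So were 6 of 8 neutrophil markers (106 FPKM in KO, 38.5 FPKM in WT), 4 of 6 B and plasma cell markers (31.6 FPKM in KO, 13.1 FPKM in WT) and 3 of 4 erythroid markers (48.4 FPKM in KO, 19.2 FPKM in WT). T cell markers summed to 5.76 FPKM in KO and 3.95 FPKM in WT and epithelial markers to 5.82 FPKM in KO and 6.62 FPKM in WT, with 0 of either past 1.5-fold. The only marker at 0 was Epcam, in the WT library. Hepatocytes are known to express Abca1 and Pltp too. The part of these cells in the ratios of Abca1, Mylip and Pltp was not tested, and in bulk libraries a change in the number of cells and in RNA per cell cannot be told apart.

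The receptors differed little between the genotypes and not in the same direction. Nr1h3 (ENSMUSG00000002108) encodes LXRα, the form that is abundant in liver and macrophages, and stood at 213 FPKM in KO and 239 FPKM in WT macrophages, a log2 ratio of -0.17. Nr1h2 (ENSMUSG00000060601) encodes LXRβ, which most tissues express, and stood at 33.25 FPKM in KO and 26.1 FPKM in WT macrophages, a log2 ratio of 0.34. Neither reached 1.5-fold. Nr1h3 mRNA was the more abundant in each library, 6.39 times the level of Nr1h2 in KO and 9.15 times in WT macrophages. Of all measured genes, 17.5% had a higher ratio than Nr1h2 and 31.8% a lower ratio than Nr1h3.

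The 2 efflux transporters differed in the size of their ratio. Abca1 (ENSMUSG00000015243) passes cholesterol and phospholipid to lipid-poor apolipoprotein A-I, the first step in building HDL. It stood at 87.8 FPKM in KO and 56.2 FPKM in WT macrophages, 1.56-fold higher in KO with a 95% counting interval of 1.53 to 1.60. Abcg1 (ENSMUSG00000024030), which adds cholesterol to HDL particles that already exist, stood at 80.4 FPKM in KO and 72.1 FPKM in WT macrophages, 1.11-fold with an interval of 1.08 to 1.15. In the values as deposited the Abca1 interval lies wholly above 1.5-fold and the Abcg1 interval wholly under it, but with pan-macrophage scaling Abca1 fell short of 1.5-fold, at a log2 ratio of 0.51. In the KO library Abca1 was 1.09 times the level of Abcg1, and in the WT library 0.779 times. The log2 ratio of Abca1 was 0.64, exceeded by 6.83% of measured genes, and that of Abcg1 was 0.15, exceeded by 33.0%.

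**Figure D3:**
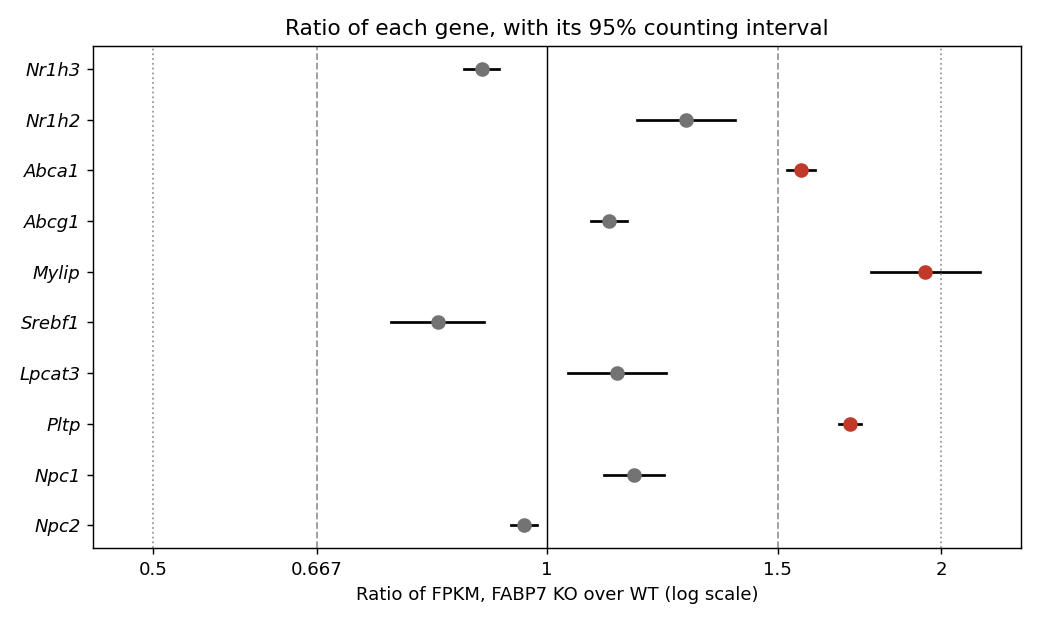
FABP7 KO level divided by WT level, on a log scale, for each of the 10 genes, with bars for the 95% counting interval, dashed lines at 1.5-fold and dotted lines at 2-fold in either direction. Abca1, Mylip and Pltp (red) have intervals wholly above 1.5, and the Mylip interval crosses 2. The bars cover counting error only.

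Among the other LXR targets, the largest ratio belonged to Mylip (ENSMUSG00000038175), the ubiquitin ligase also called IDOL that sends lipoprotein receptors to degradation. It stood at 22.6 FPKM in KO and 11.6 FPKM in WT macrophages, which placed it above 71.4% of measured genes in KO and above 51.8% in WT. The ratio of FPKM was 1.95-fold with a counting interval of 1.77 to 2.14, resting on about 1247 fragments in KO and 648 in WT. After the 1 FPKM was added it was 1.87-fold, a log2 ratio of 0.90. Only 2.88% of measured genes had a higher ratio.

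Pltp (ENSMUSG00000017754), the phospholipid transfer protein that moves phospholipid between lipoproteins and enlarges HDL, stood at 662 FPKM in KO and 389 FPKM in WT macrophages. It was 1.70-fold higher in KO, with a counting interval of 1.67 to 1.74, and 4.53% of measured genes had a higher ratio. The 10 genes together summed to 1413 FPKM in KO and 1113 FPKM in WT macrophages. Of this difference of 299.9 FPKM, Pltp alone made up 273.2 FPKM, and the other 9 genes summed to 751 FPKM in KO and 724 FPKM in WT. Pltp held 46.8% of the sum in KO and 34.9% in WT.

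Pltp shares 495 bases, 19.3% of its exon sequence, with Ctsa, the gene of lysosomal cathepsin A on the opposite strand. Whether the counting used strand is not stated, so fragments of the pair may not be told apart there. Ctsa stood at 667 FPKM in KO and 512 FPKM in WT macrophages, a log2 ratio of 0.38. The Ctsa level over the shared bases was then subtracted from Pltp, a computation added after the values were seen. This left Pltp at 533 FPKM in KO and 289.6 FPKM in WT macrophages, 1.84-fold. The whole Ctsa level was taken off, though it may itself hold Pltp fragments. Where Ctsa fragments were not counted for Pltp, the subtraction does not apply. The same computation for Lpcat3, which shares 10.2% of its exon bases with Emg1, gave 1.18-fold in place of 1.13-fold. For Npc1, with 4.52% shared with Rmc1, the ratio was 1.17-fold either way, and for Srebf1, with 1.93% shared with Rai1, it moved to 0.823 from 0.825.

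Srebf1 and Lpcat3 were under 1.5-fold. Srebf1 (ENSMUSG00000020538), which encodes SREBP-1, the factor that drives fatty acid synthesis, stood at 13.7 FPKM in KO and 16.6 FPKM in WT macrophages. Its log2 ratio of -0.26 was the lowest of the 10 genes, with 23.4% of measured genes lower still. Lpcat3 (ENSMUSG00000004270), the enzyme that places polyunsaturated fatty acids into phospholipids, stood at 27.3 FPKM in KO and 24.2 FPKM in WT macrophages, a log2 ratio of 0.17. The 4 LXR targets of this group therefore included the 2 largest ratios of the set and its lowest. The 2 genes whose promoter windows hold the DR4-type repeat, Abca1 and Srebf1, stood on opposite sides of 0. Of the 6 genes with windows that lack it, Mylip and Pltp were above 1.5-fold and Nr1h3, Nr1h2, Lpcat3 and Npc2 were not.

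The endosomal export pair was close to level. Npc2 (ENSMUSG00000021242), the soluble protein that picks up cholesterol in the lysosomal lumen, stood at 242 FPKM in KO and 252 FPKM in WT macrophages, a log2 ratio of -0.06. Npc1 (ENSMUSG00000024413), the membrane protein that takes cholesterol over from Npc2, stood at 31.6 FPKM in KO and 27.1 FPKM in WT macrophages, a log2 ratio of 0.21. Npc2 mRNA was 7.65 times the level of Npc1 mRNA in KO and 9.30 times in WT macrophages. The Npc2 interval, 0.938 to 0.982, was the nearest to 1 of all 10, and the deepest counts were those of Pltp, with about 26513 fragments in KO and 15740 in WT. The Npc2 interval rests on the longest coding transcript, of 3299 bases. With a shorter transcript it would be wider and could reach 1.

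Around these members, 9 lists of related genes held 84 genes, of which 64 were at 1 FPKM or more in a library, written as measured in what follows. Of the 64, 5 were at least 1.5-fold higher in KO (Scd1, Cyp27a1, Abca9, Lcat and Ces1d) and 4 at least 1.5-fold lower (Scd2, Nrip1, Tmem97 and Insig1). These shares of 64 are close to those of all measured genes, 8.02% higher and 7.37% lower. The counts of each list below are to be read beside the same 2 shares. Lcat and Ces1d reached 1 FPKM in the KO library alone, so the direction of their ratios was fixed by the floor. The median log2 ratio over the 64 was 0.03. Scd2, which was also 2-fold lower, was the only 1 of the 64 past 2-fold in either direction.

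**Figure D4:**
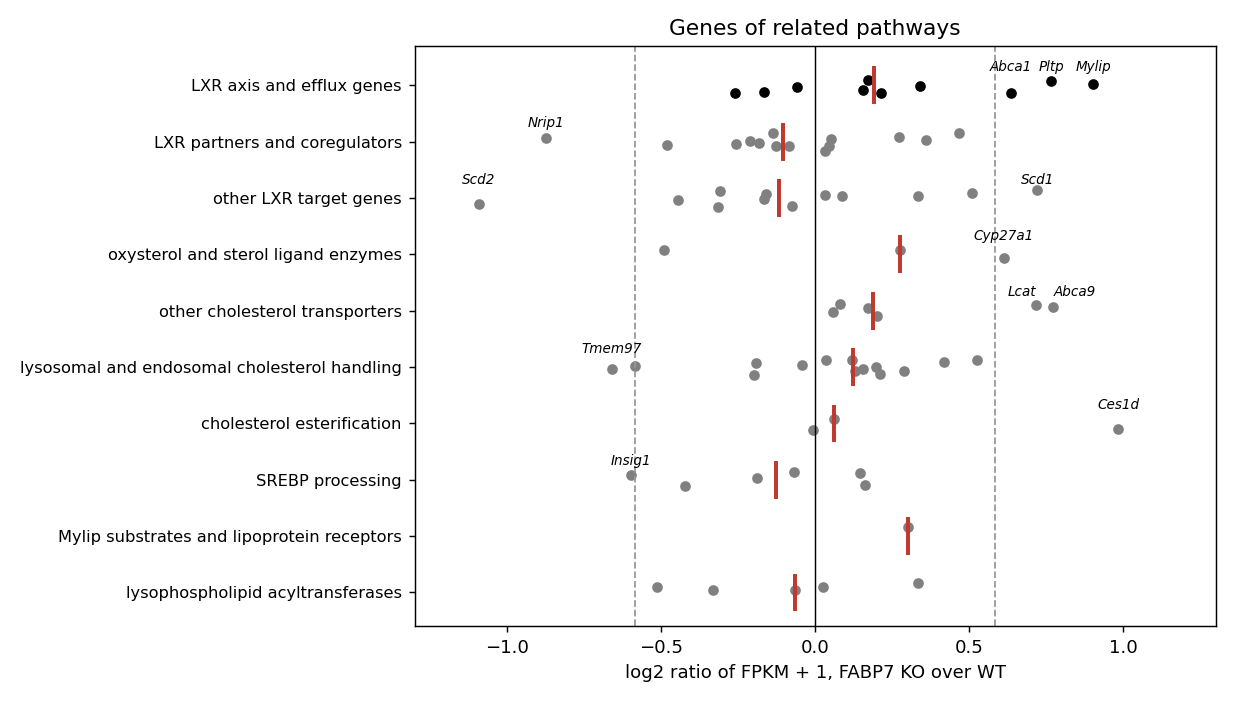
Log2 ratio (FPKM + 1 of FABP7 KO over that of WT) for the 10 genes (black) and for the genes of 9 related lists at 1 FPKM or more in a library (grey), with a red bar at each median and dashed lines at 1.5-fold. Points are spread vertically for legibility only, and genes past 1.5-fold are named. List medians run between -0.13 and 0.30, and the median of the 10 genes is 0.19.

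In the list of LXR partners and coregulators, 14 of 15 genes were measured, 0 were at least 1.5-fold higher, 1 was at least 1.5-fold lower and the median was -0.10. Rxra, the RXR gene with the highest level in these cells, stood at 144 FPKM in KO and 152 FPKM in WT macrophages, a log2 ratio of -0.08. Nrip1, a corepressor also called RIP140, was the gene past 1.5-fold, at 11.7 FPKM in KO and 22.3 FPKM in WT macrophages. The coactivators Ncoa3 and Ncoa1 had log2 ratios of 0.47 and 0.36. Ncoa3 stood at 63.6 FPKM in KO and 45.7 FPKM in WT. The corepressor complex genes Ncor1, Gps2 and Tbl1xr1 had log2 ratios of -0.13, -0.26 and -0.48, none past 1.5-fold. Rxrg was at 0 in both libraries.

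The list of other LXR target genes, with 12 of 15 measured, had 1 gene at least 1.5-fold higher, 1 at least 1.5-fold lower and a median of -0.12, below that of the 10 members. The 2 stearoyl-CoA desaturases of the list, which make monounsaturated fatty acids, went opposite ways. Scd1 stood at 49.5 FPKM in KO and 29.6 FPKM in WT macrophages, a log2 ratio of 0.72. Scd2 stood at 19.8 FPKM in KO and 43.3 FPKM in WT macrophages, a log2 ratio of -1.09. These are near paralogs that can share reads, so each value is uncertain to that extent. The small GTPase gene Arl4c had a log2 ratio of 0.51, at 27.6 FPKM in KO and 19.1 FPKM in WT, and the sphingomyelinase-like Smpdl3a a log2 ratio of 0.33, at 624 FPKM in KO and 495 FPKM in WT. Cd5l, a secreted scavenger protein and a Kupffer cell marker, was the highest gene of the list at 6001 FPKM in KO and 6696 FPKM in WT, a log2 ratio of -0.16. Lpl, Ccl24 and Fasn had log2 ratios of -0.08, -0.31 and -0.44.

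Of 8 listed enzymes that make or use oxysterols and sterol ligands, 3 were measured, 1 was at least 1.5-fold higher and the median was 0.28. Cyp27a1, which makes 27-hydroxycholesterol, an LXR ligand, stood at 38.0 FPKM in KO and 24.5 FPKM in WT macrophages, a log2 ratio of 0.61. Hsd3b7, which acts on oxysterols on the way to bile acids, stood at 30.3 FPKM in KO and 24.8 FPKM in WT, a log2 ratio of 0.28. Dhcr7, a late enzyme of cholesterol synthesis, stood at 11.7 FPKM in KO and 16.8 FPKM in WT, a log2 ratio of -0.49.

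Of 4 listed Mylip substrates and lipoprotein receptor genes, 1 was measured, and it did not pass 1.5-fold. This was Lrp1, a large scavenging receptor that Mylip does not target, at 242 FPKM in KO and 196 FPKM in WT macrophages, a log2 ratio of 0.30. Vldlr, a Mylip substrate, was under 1 FPKM in both libraries, at 0.66 FPKM in KO and 0.73 FPKM in WT. Mylip is known to act on receptor protein, and protein was not measured here.

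All 6 genes of SREBP processing were measured, with 0 at least 1.5-fold higher, 1 at least 1.5-fold lower and a median of -0.13. Insig1, which holds SREBP in the endoplasmic reticulum when sterols are plentiful and is itself an SREBP target, stood at 11.6 FPKM in KO and 18.03 FPKM in WT macrophages, a log2 ratio of -0.60. Srebf2, which drives cholesterol synthesis, stood at 12.1 FPKM in KO and 16.6 FPKM in WT, a log2 ratio of -0.42. Srebf1 was 1.13 times the level of Srebf2 in KO and 1.00 times in WT macrophages. The escort Scap and the proteases Mbtps1 and Mbtps2 had log2 ratios of 0.15, -0.07 and 0.16.

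The list of other cholesterol transporters also holds genes that are not transporters, such as Lcat. Of its 10 genes, 6 were measured and all 6 had ratios above 0, against 50.3% of all measured genes. Of these 6, 2 were at least 1.5-fold higher, against 8.02% of all measured genes. At least 1.5-fold lower were 0, against 7.37%, and the median was 0.19. Abca9, an ABCA family member, stood at 45.7 FPKM in KO and 26.3 FPKM in WT macrophages, a log2 ratio of 0.77. Lcat, the plasma enzyme that esterifies HDL cholesterol and is made mainly by hepatocytes, stood at 1.12 FPKM in KO and 0.29 FPKM in WT, near the floor. It reached the floor of 1 FPKM in the KO library alone. Its ratio above 0 was therefore fixed by the floor and lends no weight to the counts of this list. Scarb1, the HDL receptor SR-BI, stood at 181 FPKM in KO and 174 FPKM in WT, a log2 ratio of 0.06. The related Abca2 and Abca3 had log2 ratios of 0.20 and 0.08.

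The list of lysosomal and endosomal cholesterol handling, the setting in which Npc1 and Npc2 work, had all 14 genes measured, 0 at least 1.5-fold higher, 1 at least 1.5-fold lower and a median of 0.12. Lipa, the acid lipase that frees cholesterol from lipoprotein esters, stood at 359 FPKM in KO and 313 FPKM in WT macrophages, a log2 ratio of 0.20. The abundant lysosomal genes Psap, Lamp1 and Lamp2 had log2 ratios of -0.19, 0.04 and 0.16. Tmem97, a protein that limits NPC1, stood at 10.4 FPKM in KO and 17.1 FPKM in WT, a log2 ratio of -0.66. Stard4, a cytosolic sterol carrier, had a log2 ratio of -0.58, just short of 1.5-fold lower. Gramd1b and Gramd1a, which carry plasma membrane cholesterol to the endoplasmic reticulum, had log2 ratios of 0.53 and 0.42.

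For cholesterol esterification, 3 of 5 genes were measured, 1 was at least 1.5-fold higher, 0 were lower and the median was 0.06. Soat1, which esterifies cholesterol for storage, stood at 107.5 FPKM in KO and 103 FPKM in WT macrophages, and Nceh1, which frees it again, at 31.6 FPKM in KO and 31.8 FPKM in WT. The gene past 1.5-fold was the liver carboxylesterase Ces1d, at 1.69 FPKM in KO and 0.36 FPKM in WT. Ces1d reached the floor of 1 FPKM in the KO library alone, so the direction of its ratio was fixed by the floor. Its paralog Ces1g was under 1 FPKM in both libraries. Among lysophospholipid acyltransferases other than Lpcat3, 5 of 7 were measured, 0 passed 1.5-fold in either direction and the median was -0.06. Lpcat2, the highest of them, stood at 75.0 FPKM in KO and 59.3 FPKM in WT, a log2 ratio of 0.33. Lpcat4, Lpcat1, Agpat3 and Mboat7 had log2 ratios of -0.51, -0.33, -0.06 and 0.03.

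The ratios also depend on how the 2 libraries are brought to the same scale. Scaling the KO library so that the median ratio of the pan-macrophage markers was 1, dividing it by 1.09, put only Mylip and Pltp past 1.5-fold, with Abca1 at a log2 ratio of 0.51, and gave the 10 genes a median log2 ratio of 0.07, where the median of all measured genes was -0.11. Without the 50 highest genes in the total, dividing it by 0.937, the median log2 ratio was 0.28 and Npc2 stood at 0.03 in place of -0.06. Over all alternatives the log2 ratio of Mylip ran between 0.79 and 0.99, that of Pltp between 0.64 and 0.86 and that of Abca1 between 0.51 and 0.73. Under each of the alternatives run, Nr1h3 and Srebf1 were below 0 and the 7 members other than these and Npc2 were above 0.

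**Figure D5:**
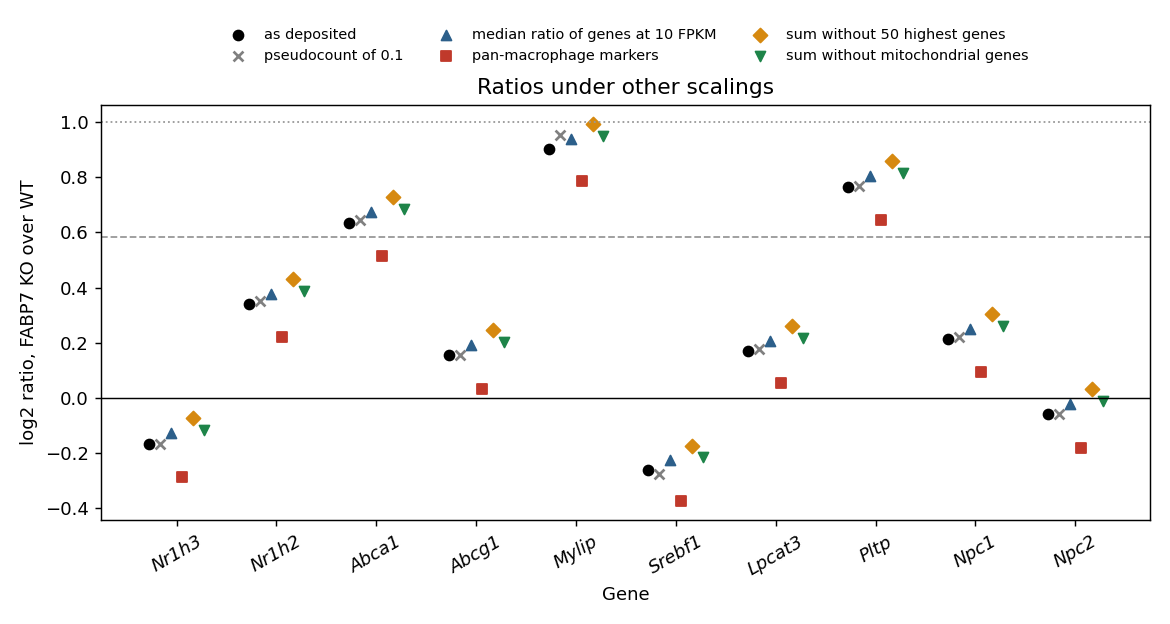
Log2 ratio, FABP7 KO over WT, of each of the 10 genes as deposited (black circles), with a pseudocount of 0.1 (crosses) and under 4 other scalings of the KO library (coloured marks), with a dashed line at 1.5-fold and a dotted line at 2-fold. Mylip and Pltp stay above the dashed line under each, Abca1 is at 0.51 with pan-macrophage scaling, and only Npc2 changes sign.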

How the data were processed

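Liver macrophage mRNA of 1 FABP7 KO and 1 WT library was selected on oligo(dT), copied with random primers and read on an Illumina sequencer. The authors deposited FPKM values with 2 decimals for 22322 genes, in a table of both libraries and in tables of single libraries that hold the same values, with no counts. Bowtie2 2.2.8 and TopHat2 2.1.1 stand in the submitters' processing notes. How fragments were counted, with which annotation and build, and whether by strand, was not given in the sources used here. Columns were assigned to genotypes from the labels and the column names.

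Symbols were taken from GENCODE by Ensembl ID for 22267 genes, and 55 had none. Summed FPKM was 448390 in KO and 462837 in WT. Depth was estimated from low values of genes with 1 transcript, as the depth that put the largest share of them within 0.15 of a whole fragment. It was about 18000000 fragments in KO, with a share of 91.4% of 116 values, and 18200000 in WT, with 88.3% of 120. Chance gives 30% at a depth fixed in advance. Since the depth was picked for the highest share, chance would give more than 30% here. Fragments of each member and exact 95% counting intervals follow from this depth and the longest GENCODE coding transcript of each gene. The intervals cover counting error only and assume lengths close to the authors'. Where the authors' length was shorter, fragments are overstated and intervals are too narrow. The computation was tested on simulated data.

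Log2 ratios of KO over WT used a pseudocount of 1 FPKM, so that ratios of low genes are understated, and a floor of 1 FPKM in at least 1 library (10770 genes). No test was run. All members are named, and of each related list up to 4 genes with the highest mean and up to 2 with the largest ratio in each direction, and up to 2 of each marker list; others are named as counts require. The members and the lists were chosen with earlier results of these data known. Some genes of the related lists are not reported here and are left out of the lists' counts. The alternatives were 3 scalings of the KO library (to pan-macrophage markers, to the sum without the 50 highest genes, and to the median of genes with 10 FPKM in both), a floor of 5 FPKM or none, and a pseudocount of 0.1. Leaving out mitochondrially encoded genes was added after the values were seen. Promoter windows came from RefSeq (GRCm38.p6). Python 3.11.15, NumPy 2.4.6, pandas 2.3.3, SciPy 1.17.1 and Matplotlib 3.10.9 were used.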

Additional observations from a re-analysis of the deposited data

How the results depend on the processing

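The 10 genes were recomputed under 7 alternatives, of which the 2 other floors cannot change a ratio, since every one of the 10 genes is above them. The other 5 gave 50 log2 ratios. Each shift was set against the distance from the ratio to the ends of its counting interval. Of the 50, 30 moved by less than this distance and 20 moved by more. A scaling shifts every ratio by nearly the same amount, so which ratios moved by more depends on the width of their intervals. The split therefore does not rank the genes by how firm their ratios are. The sign changed in 1 of the 50, that of Npc2. The number of genes past 2-fold remained 0 throughout, and the number at least 1.5-fold higher was 2 with the pan-macrophage scaling and 3 otherwise. The median log2 ratio of the 10 genes was 0.074 with that scaling, which divides the KO library by 1.09 and so lowers every ratio. Leaving out mitochondrially encoded genes, a factor of 0.967, gave 0.24, and scaling by genes at 10 FPKM or more, a factor of 0.974, gave 0.23. Over all measured genes, the 1.5-fold rule called 864 higher and 794 lower. A floor of 5 FPKM gave 436 higher and 581 lower of 8041 genes, and pan-macrophage scaling 622 higher and 1181 lower of 10694. The sum without the 50 highest genes gave 1101 higher and 620 lower of 10813. A pseudocount of 0.1 gave 1242 higher and 992 lower of 10770. No paired analysis was possible because each genotype has 1 library, and no library could be left out. Depth limits Mylip most, which with 648 fragments in WT has the widest interval relative to its ratio.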
